A study of Mus musculus with 1115 samples.

Results

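Radial glia are the neural stem cells of the embryonic cortex: they line the ventricle, divide there, and give rise to intermediate progenitors and neurons. SOX9 is a transcription factor of the SoxE family that these cells express and that is known for its part in keeping neural stem cells and, later, in the switch to making glia. HES5 and HES1 are transcription factors switched on by Notch signalling; they hold back proneural factors such as NEUROG2, whose activity moves a cell towards the intermediate progenitor and neuronal fate. Notch signalling works between neighbouring cells, so that a cell that makes ligand and proneural factors has neighbours with active receptor.

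The cells described here are cortical radial glia compared by their own Sox9 level. Embryos of the C57BL/6 strain received, by in utero electroporation, 1 plasmid in which the CAG promoter drives mRFP and a Hes5 promoter drives GFP; at embryonic day 13.5, cells of the cerebral cortex were sorted one by one. The group called Hes5_GFP holds cells with both colours, and CAG_mRFP holds cells with mRFP and no GFP; both carry the same plasmid, and neither is an unelectroporated control. Electroporation reaches only part of the cortex, and the Hes5 promoter in the plasmid is a reporter whose signal need not follow the endogenous gene. Libraries came from a modified Smart-seq2 protocol, which reads along whole transcripts and for which no molecular identifiers are described. Members were chosen by 4 criteria: Hes5_GFP group, the authors' class RGCs (radial glial cells), cluster 0, 1 or 3 of the authors' clustering, and a sort day with at least 15 such cells. This gave 45.5% of the 1115 cells of the series, on 4 sort days (days 1 to 4 here). Within each day the cells were ranked by Sox9 in the authors' normalized table and cut into 3 parts, which gave 5, 13, 73 and 76 Sox9-high cells on days 1 to 4, the same numbers of Sox9-low cells, and 7, 15, 73 and 78 middle cells. A day is the replicate. No embryo is named, and p-values therefore measure the spread between sort days.

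Total counts per member cell ran from 10179 to 1772986, with a median of 279687. Sox9 itself (chromosome 11, 112782224 to 112787760, GRCm38/mm10) ranked the cells, so its values are a description without a test. Counts were summed over the cells of a side on each day, and a level is given as CPM, relative to that sum and scaled to 1e+06 (summed CPM). Sox9 stood at 1871, 1587, 1116 and 766 summed CPM in Sox9-high cells on days 1 to 4, at 812, 918, 542.3 and 420.7 in middle cells, and at 205.9, 489.5, 227.1 and 200.4 in Sox9-low cells. On day 3 the highest Sox9-low cell had 383.01 CPM and the lowest middle cell 385.4 CPM, while the highest middle cell had 697.5 CPM and the lowest Sox9-high cell 708.01 CPM. The parts are thus ranges cut from a continuous distribution and not separate cell types. Only 6 members (1.18%) had no Sox9 count, all of them on the low side, 4 on day 3 and 2 on day 4. In the authors' class ENs of the same series, 25.3% of the cells had a Sox9 count, at a median total of 240326.

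**Figure D1:**
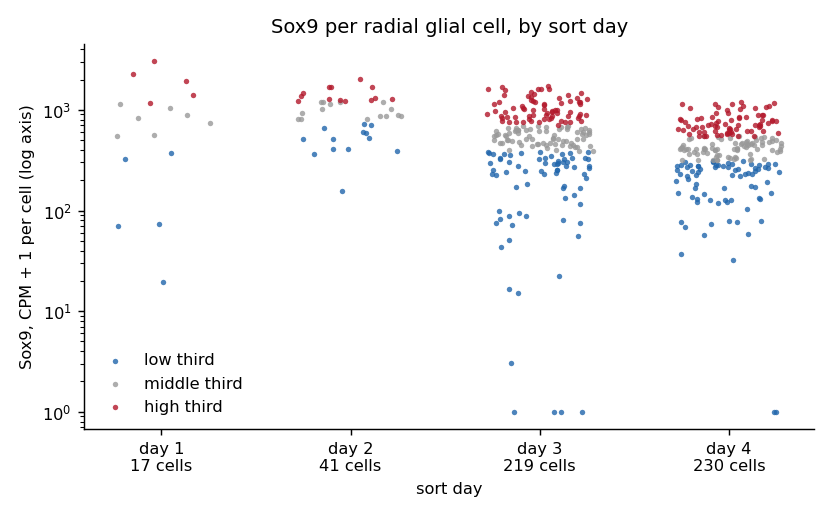
Sox9 in each radial glial cell, as CPM + 1 on a log axis, by sort day; colours mark the low, middle and high parts used for the comparison. The cut points differ between days (day 1 and day 2 lie higher than days 3 and 4), and the 6 cells without a Sox9 count lie at the bottom of days 3 and 4.

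Sox9 level went with the plate a cell was sorted into. Plate is read from the cell names, and the authors' table gives dates of library preparation that differ between plates of day 2, of day 3 and of day 4. The median Sox9 of a plate ran from 306.1 to 1278 CPM. On day 3, plate L2A gave 35 Sox9-high and 15 Sox9-low cells, and plate L3A gave 7 and 24. On day 4, plate L2D gave 29 Sox9-high and 9 Sox9-low cells, and plate L1C, the 1 plate of that day with the earlier date, gave 7 and 29. The Sox9-high and Sox9-low sides of a day therefore differ in their mix of plates, and what follows is given beside the same comparison made within plates: 10 combinations of day and plate with at least 15 members, ranked and cut separately. Plates of 1 day share that day's sort and are not independent embryos. The median total count of Sox9-high and Sox9-low cells was 864776 against 711520 on day 1, 776175 against 87539 on day 2, 313555 against 233453 on day 3 and 282547 against 296626 on day 4. Within plates it was higher on the Sox9-high side in 5 and lower in 5 of 10.

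**Figure D2:**
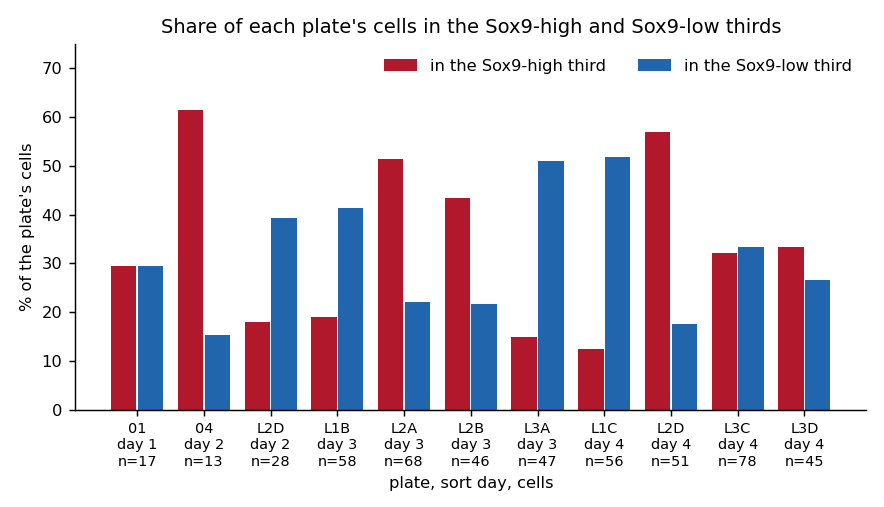
Percent of each plate's member cells that fell in the Sox9-high part (red) and in the Sox9-low part (blue), by plate and sort day, with the number of cells. Plates 04, L2A, L2B and L2D of day 4 gave clearly more Sox9-high than Sox9-low cells, and L2D of day 2, L1B, L3A and L1C the reverse.

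The clearest difference between the sides was in the cell cycle. Sox9-high radial glia were more often in G2M, the authors' call for cells between the end of replication and division, and less often in S. By day, G2M took 1 of 5, 8 of 13, 50 of 73 and 53 of 76 Sox9-high cells, against 0 of 5, 6 of 13, 36 of 73 and 40 of 76 Sox9-low cells. The share was higher on the Sox9-high side on 4 of 4 days, by 20, 15.4, 19.2 and 17.1 percentage points. The mean share was 54.9% ± 23.6 against 37.03% ± 24.8 (SD, n = 4 days), and the mean difference 17.9 ± 2.08 points (SD). Days differ far more from each other than the sides do, while the difference within a day came out similar each time. On days 1 and 2 it rests on few cells, 1 of 5 against 0 of 5 and 8 of 13 against 6 of 13. The small SD of the difference is therefore no measure of its precision. With 2 equal parts the difference ran from 0 to 20.2 points over days, and ranked within plate from 20 to 30.8. With 4 days an exact two-sided sign-flip permutation test cannot go below p = 0.125, which is the value it gave (adjusted p = 0.312 over 10 measures).

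Middle cells lay between the sides on days 1, 3 and 4, with 14.3%, 58.90% and 58.97% in G2M; on day 2 they had the highest share, 73.3%. Pooled over days, G2M took 67.1% of Sox9-high cells (95% exact Clopper-Pearson interval 59.4 to 74.1), 58.4% of middle cells (50.7 to 65.8) and 49.1% of Sox9-low cells (41.3 to 56.9); the intervals cover counting error only. S phase took 9.80% ± 9.63 of Sox9-high and 20.7% ± 6.93 of Sox9-low cells (SD, n = 4 days), lower on 4 of 4 days by 10.95 points on average. For S the exact permutation p was also 0.125 (adjusted p = 0.312). G1 took 35.3% ± 30.03 against 42.2% ± 25.6 (SD, n = 4 days), lower on 3 days and equal on day 1 (exact permutation p = 0.25, adjusted p = 0.312).

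Ranked within plates, an analysis added after the data had been seen, the difference was larger. G2M took on average 70.1% of Sox9-high and 43.04% of Sox9-low cells, a difference of 27.1 ± 9.54 points (SD over 10 plates), higher in 10 of 10 plates and between 15.4 and 41.2 points. The exact two-sided sign-flip permutation test over plates gave p = 0.00195, the smallest it can give, and adjusted p = 0.00586 over 6 measures. It treats plates as independent, and 10 plates from 4 days are not. S was lower in 9 plates and equal in 1, and G1 lower in 8 and equal in 2. Detected genes went with it: the median per cell was higher on the Sox9-high side in 10 of 10 plates, by 212.6 ± 162.1 genes (SD), and on 3 of 4 days. Thinned to 50000 counts per cell, the day-wise difference in detected genes was 41.6 ± 228.7 (SD, n = 4 days). When the parts were taken separately among cells with fewer and with more detected genes, the G2M difference was 10.7 points, higher on 3 days and 0 on the other day. The part of detected genes in the phase shares was not tested beyond that.

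**Figure D3:**
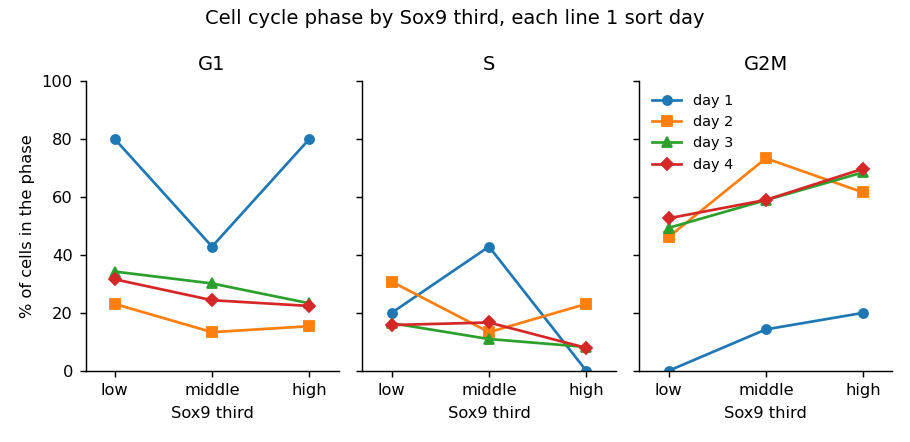
Percent of cells called G1, S and G2M in the low, middle and high Sox9 parts; each line is 1 sort day. In the G2M panel the high end of every line is above its low end by 15.4 to 20 points, and in the S panel every line ends lower than it starts; day 1 rests on 5 to 7 cells a point.

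Cluster membership shifted too; these shares are a description, since the clusters were made from the cells' expression. Cluster 0 held 49.1% of Sox9-high and 36.5% of Sox9-low cells, cluster 1 held 27.5% and 41.9%, and cluster 3 held 23.4% and 21.6%.

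Across the transcriptome no gene passed the test, from which Sox9 was left out. Of 8449 genes with at least 5 summed CPM whose reads reached at least 10% of one side's cells, 0 (0%) had an adjusted p under 0.05 in edgeR's quasi-likelihood test with the day as a block. At an unadjusted p under 0.05, 13 genes (0.154%) were higher and 12 (0.142%) lower in Sox9-high cells. Together these were 0.296% of genes, a smaller share than the threshold of 0.05 lets through when no gene differs. The test was thus conservative here, and its 0 calls do not show that few genes differ. DESeq2 called 1 gene, Mfng, with an adjusted p of 0.0157 and a log2 ratio of -5.18, and had 5.17% of genes at an unadjusted p under 0.05. A gene's fitted log2 ratio had a median standard error (SE) of 1.10, so that 4 days of these sums leave moderate differences undetectable. In all, 7.43% of genes were higher on 4 of 4 days and 5.75% lower, and the median log2 ratio of all genes was 0.07. A ratio above 0 was fitted for 4528 of the 8449 genes and a ratio below 0 for 3921. Counts of list members given below are to be read beside these shares. Within plates, the same test called 0 genes and had 3.065% at an unadjusted p under 0.05. Everything said below of single genes is therefore a level or a ratio that did not pass the adjusted test; named genes were picked by the smallest unadjusted p among those with 1 sign on all days.

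The marker genes of radial glia were read on both sides, and none differed past the adjusted test. Pax6, a transcription factor of cortical progenitors, stood at 405.3 summed CPM in Sox9-high and 437.7 in Sox9-low cells (means over days; log2 ratio -0.09 ± 0.38, SE) and had a read in 96.4% and 91.02% of the cells. Its sign turned between settings. Slc1a3, the glutamate transporter GLAST, was at 618.2 against 538.4 (log2 ratio 0.19 ± 0.20). Fabp7, a fatty acid binding protein of radial glia, was at 1254 against 769 (0.49 ± 0.34), higher on 3 of 4 days and in 7 of 10 plates. Ranked within phase, Fabp7 was at 0.82 ± 0.18 (unadjusted p = 0.0050, adjusted p = 1). Sox2, a progenitor factor with few reads in these libraries, was at 29.1 against 27.02 (-0.68 ± 1.20). Of 18 radial glia list members tested, 12 had a ratio above 0 and 3 were higher on 4 of 4 days: Hes5, Pdpn (podoplanin, a membrane glycoprotein) and Ttyh1 (a membrane protein of neural progenitors). The list's median was 0.21, beside 0.07 for all genes. Of the tested members 1 reached 10% of the cells on the Sox9-high side only. By mean summed CPM, whether tested or not, 14 of 19 list members were higher in Sox9-high cells and 5 lower. The SEs of Pax6 and Slc1a3 are small beside the median SE of 1.10 over all genes. Their values still allow a change in either direction, as do those of most other members.

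Markers of other cell types stayed low on both sides. None of the ventral telencephalon, Cajal-Retzius, hem and choroid plexus, endothelium, microglia, meningeal fibroblast or erythroid list members reached the test. Their summed levels were at most 57.95 CPM on any day and side, with 1 exception, 174.7 CPM of endothelial genes in the Sox9-low cells of day 3. Of the pericyte list only Notch3 was tested, a receptor that radial glia also use. Cortical neuron genes summed to between 133.5 and 297.3 CPM in Sox9-high and between 134.4 and 309.95 CPM in Sox9-low cells; 5 of 15 were tested, with 1 ratio above 0 and 4 below, and a median of -0.23 over days, 0.33 on day 4 and 0.24 over plates. Neurod6, a factor of young projection neurons, was lower on 4 of 4 days (0.73 against 6.89 summed CPM, log2 ratio -3.85 ± 1.34, unadjusted p = 0.0301, adjusted p = 1).

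Genes of intermediate progenitors, the next step from radial glia towards neurons, mostly had lower levels in Sox9-high cells, and none passed the adjusted test. Of 13 genes of the intermediate progenitor list, 8 were tested; 6 had a ratio below 0 and 3 of these, Mfng, Gadd45g and Chd7, were lower in Sox9-high cells on 4 of 4 days. The list's median log2 ratio was -1.37 over days, and its median was below 0 in 9 of 10 plates. These medians lean low by the filter, since Mfng and Neurog2 reached 10% of the cells on the Sox9-low side only and no member on the Sox9-high side only. By mean summed CPM, whether tested or not, 10 of the 13 were lower in Sox9-high cells and 3 higher. The 13 genes together stood at 819, 540.8, 379.8 and 329.3 summed CPM in Sox9-high and at 1904, 524.97, 685.8 and 541.8 in Sox9-low cells, lower in Sox9-high cells on days 1, 3 and 4 and slightly higher on day 2. Day 1 holds 5 cells a side.

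Mfng, the manic fringe glycosyltransferase that modifies Notch receptors, had the lowest unadjusted p of all genes. Its summed CPM was 1.5, 0, 4.27 and 6.30 in Sox9-high cells and 365.5, 3.54, 54.1 and 53.1 in Sox9-low cells on days 1 to 4, with 31.3 on average in middle cells. Every Sox9-high value was below the Sox9-low value of its day, and the sides overlap only through the Sox9-low cells of day 2. The fitted log2 ratio was -5.13 ± 1.38 (SE, unadjusted p = 0.0112, adjusted p = 1, edgeR). Because a sum cannot tell fewer cells from less RNA per cell, the cells were counted: 11 Sox9-high and 28 Sox9-low cells had a read (6.59% and 16.8%). With every cell thinned to 50000 counts it was 7 and 26 cells (4.49% and 16.5%), and within plates no plate had a higher share on the Sox9-high side and 7 of 10 a lower one. The largest single cell gave 35.5% of the Sox9-low counts.

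Neurog2, the proneural factor that starts the intermediate progenitor programme, was read in 10 Sox9-high and 33 Sox9-low cells (5.99% and 19.8%). By day that was 1 of 5 against 4 of 5, 2 of 13 against 0 of 13, 3 of 73 against 10 of 73, and 4 of 76 against 19 of 76 cells. The order was thus turned on day 2. Thinned to 50000 counts, the shares were 4.49% and 17.7%, and day 2 was still turned, with 1 of 11 against 0 of 9 cells. Without thinning, the share was lower on the Sox9-high side in 8 and higher in 2 of 10 plates. The fitted log2 ratio was -2.27 ± 1.90 (SE) over days, and -3.91 ± 0.99 over plates (unadjusted p = 0.0017, with no gene past the adjusted test). Eomes, the defining transcription factor of intermediate progenitors, had a read in 3.59% and 5.39% of the cells and was not tested. Btg2, an antiproliferative gene used as a marker of neurogenic divisions, went with neither side: 179.3, 217.3, 87.2 and 47.7 summed CPM in Sox9-high cells and 19.2, 54.2, 81.9 and 105.1 in Sox9-low cells, with a read in 37.7% and 39.5% of the cells. The 5 BTG and TOB genes tested had 3 ratios above 0 and 2 below, with a median of 0.10.

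Hes6, a relative of HES1 that counteracts it and promotes neurogenesis, was also lower in Sox9-high cells on 4 of 4 days: 88.1, 10.5, 87.4 and 54.5 against 451.7, 39.7, 118.3 and 183.8 summed CPM (log2 ratio -1.63 ± 0.51, unadjusted p = 0.020, adjusted p = 1, edgeR). Values of the sides overlap between days, and the Sox9-high value is the lower on each. The share of cells with a read of Hes6 was 41.3% against 50.3%, and by day 3 of 5 against 3 of 5, 6 of 13 against 3 of 13, 33 of 73 against 33 of 73, and 27 of 76 against 45 of 76 cells. Without thinning, only day 4 thus had fewer Sox9-high cells with a read. With cells thinned as for Mfng, the share was 37.2% against 50%, lower on 3 days and higher on 1. By day that was 2 of 5 against 3 of 5, 2 of 11 against 2 of 9, 32 of 71 against 30 of 70, and 22 of 69 against 44 of 74 cells. Days 1 and 2 rest on few cells, and the clear difference is again that of day 4. Chd7, a chromatin remodeller, was at 35.4, 40.9, 56.1 and 41.2 against 197.8, 209.3, 117.1 and 69.7 summed CPM (-1.66 ± 0.58, unadjusted p = 0.0311, adjusted p = 1). The Sox9-high value was the lower on each day, and 8 of 10 plates had the same sign. Of 11 Notch ligand and proneural genes 5 were tested, Hes6, Mfng and Neurog2 among them; 4 had a ratio below 0, and the median was -1.63, with Dll1, Mfng and Neurog2 past the filter through the Sox9-low side only. Dll1, a Notch ligand, differed by -0.19 ± 1.06 over days and was lower in 8 of 10 plates. Those genes and the intermediate progenitor list share Mfng and Neurog2, so the 2 lists are not separate observations.

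The Notch receptors and their targets leaned the other way. Hes5 was at 96.01, 140.9, 61.7 and 66.9 summed CPM in Sox9-high cells and at 51.1, 20.5, 53.5 and 53.6 in Sox9-low cells. The Sox9-high value was the higher on each day, the gap being wide on days 1 and 2 and narrow on days 3 and 4. The fitted log2 ratio was 1.01 ± 0.74 (SE, unadjusted p = 0.225, adjusted p = 1), and 0.27 ± 0.43 over plates. A read of Hes5 was found in 59.9% of Sox9-high and 40.1% of Sox9-low cells, and in 51.4% of middle cells. By day the counts were 2 of 5 against 3 of 5, 8 of 13 against 5 of 13, 41 of 73 against 24 of 73, and 49 of 76 against 35 of 76 cells. Thinned to 50000 counts the shares were 55.8% and 36.1%, and in 7 of 10 plates the share was higher on the Sox9-high side, in 1 lower. More Sox9-high cells had a Hes5 read than Sox9-low cells, while the summed level on days 3 and 4 differed little.

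Hes1 stood at 195.2, 247.5, 113.3 and 33 against 10.5, 93.2, 62.9 and 41.2 summed CPM (log2 ratio 1.43 ± 0.90), higher on 3 of 4 days and in 6 of 10 plates. Notch1, the main receptor of radial glia, was at 220.2 against 136.7 (0.49 ± 0.40), higher on 3 of 4 days and in 6 of 10 plates. Its log2 ratio was 0.43, 1.46, -0.007 and 0.11 on days 1 to 4, so the difference in the means rests mostly on days 1 and 2. A read of Notch1 was found in 63.5% of Sox9-high and 65.3% of Sox9-low cells. Hey1, a further target, was higher on 4 of 4 days and in 9 of 10 plates (157.4 against 106.96 summed CPM, 0.56 ± 0.38). Of 9 members tested 8 had a ratio above 0; Rbpj, the DNA-binding partner of the cleaved receptor, was the exception at -0.54 ± 0.75. The median was 1.01 over days and 0.41 over plates, and above 0 in 9 of 10 plates. These counts and medians lean high by the filter. Of the tested members 1 reached 10% of the cells on the Sox9-high side only, and 0 on the Sox9-low side only. By mean summed CPM, whether tested or not, 7 members were higher in Sox9-high cells and 2 lower. Genes whose shares of cells are given here were selected after their values had been seen.

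The plasmid reporter was read in fewer Sox9-high than Sox9-low cells, unlike Hes5, while its fitted ratio had the sign of that of Hes5; the 2 genes were not tested against each other. eGFP had a read in 66.5% of Sox9-high and 72.5% of Sox9-low cells, and a log2 ratio of 1.54 ± 0.59 over days (unadjusted p = 0.0436, adjusted p = 1) but 0.21 ± 0.61 over plates. On day 3 the ratio was -0.43. The largest cell gave 32.2% of all eGFP counts on the Sox9-high side and 45.5% on the Sox9-low side. For mRFP, read in 57.5% and 73.1% of the cells, 1 cell gave 69.7% of the Sox9-high counts. Plasmid copies per cell vary after electroporation, and these sums follow a few cells.

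Most replication genes had ratios below 0 and most mitotic genes ratios above 0, none past the adjusted test; these genes and the phase calls come from the same counts. Of 41 S phase genes tested 28 had a ratio below 0, with 10 lower and 1 higher on 4 of 4 days, and a median of -0.23. The S phase list summed to 10446 to 14949 CPM in Sox9-high and to 15163 to 17766 CPM in Sox9-low cells. The Sox9-high sum was the lower on each day. Mcm5, a subunit of the replicative helicase, was at 558.02, 394.6, 423.4 and 403.5 against 1234, 467.9, 573.6 and 620.6 summed CPM (-0.61 ± 0.23, unadjusted p = 0.0423, adjusted p = 1), lower in 9 of 10 plates. Mcm2, Mcm6 and Mcm7 of the same complex, Cdc6 (which loads it), Chaf1b (a histone chaperone) and Hells (a chromatin remodeller) were lower on 4 of 4 days as well. Ranked within phase, the list's median moved from -0.23 to -0.07 and Mcm5 from -0.61 to -0.41; within classes of detected genes the list was at -0.17 and Mcm5 at -0.12.

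Of 51 G2 and M phase genes tested 35 had a ratio above 0, with 5 higher and 1 lower on 4 of 4 days. Together they stood at 5573, 15638, 21171 and 17615 summed CPM in Sox9-high cells on days 1 to 4. In Sox9-low cells they stood at 3868, 17610, 15313 and 17701. The list was thus lower in Sox9-high cells on days 2 and 4. Its median by day was 0.20, -0.09, 0.45 and -0.02. The fitted median of 0.21 became -0.06 when cells were ranked within phase and -0.25 within classes of detected genes. Smc4, a condensin subunit that compacts chromosomes, was at 260.97, 749.5, 780.9 and 624.2 against 108.5, 273.8, 475.5 and 598.1 summed CPM (0.88 ± 0.31, unadjusted p = 0.0316, adjusted p = 1), and at 0.86 ranked within phase. Plk1, a mitotic kinase, Kif23 and Anln, which act in cytokinesis, and Gtse1 were the other 4 higher on all days, and Bub1, a spindle checkpoint kinase, was lower on all days. Mki67, a proliferation marker, was read in 72.5% of Sox9-high and 57.5% of Sox9-low cells (0.52 ± 0.55), and in 75.8% and 56% within plates at 50000 counts. Fzr1, which activates the anaphase-promoting complex in late mitosis and G1, was higher on 4 of 4 days (217.6 against 84.1 summed CPM, 1.30 ± 0.48). Among 18 G1 regulators, 9 had a ratio above 0 and 9 below: Ccnd2, a cyclin of cortical progenitors, was lower on 4 of 4 days (1616 against 2140 summed CPM, -0.40 ± 0.18) and in 9 of 10 plates, while Cdkn1b, Cdkn2d and Rbl2, which restrain the G1 to S step, were higher on 4 of 4 days.

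**Figure D4:**
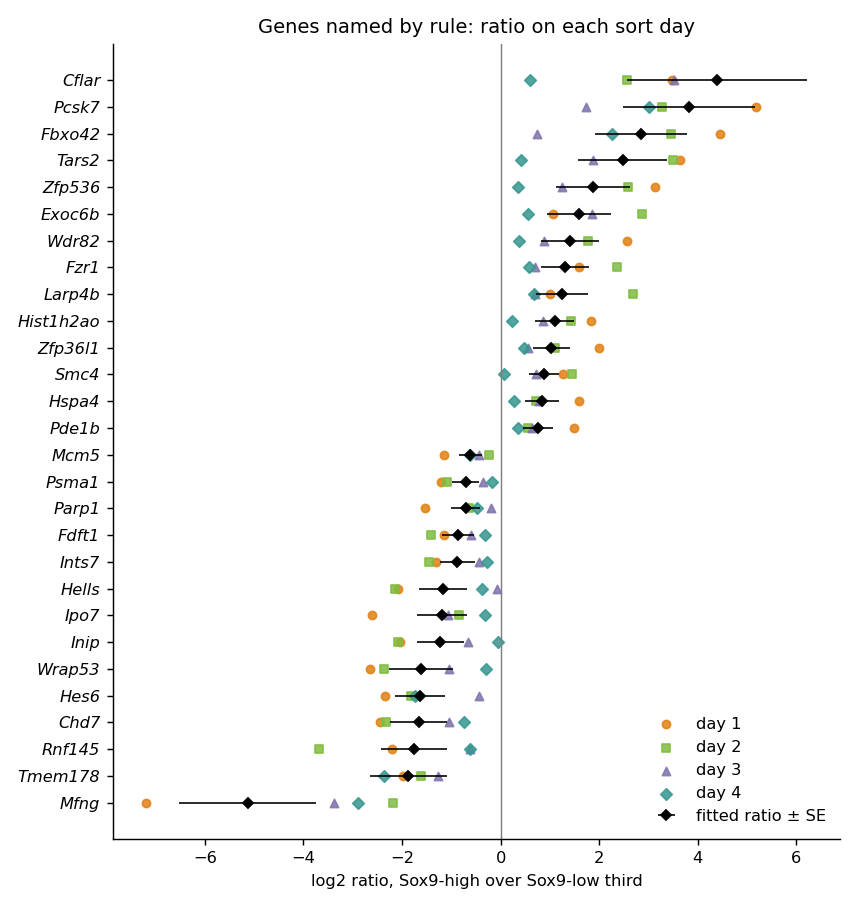
Log2 ratio of Sox9-high over Sox9-low cells for the 28 genes named by rule: coloured symbols are the 4 sort days (computed with 1 CPM added to both sums), black diamonds the fitted ratio with its SE. By rule each gene has 1 sign on all days; ratios of days 1 and 2 are mostly the larger ones, and none of the genes passed the adjusted test.

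The 14 genes named as higher had unadjusted p-values from 0.0240 to 0.0574 and an adjusted p of 1 throughout. Beside Smc4 and Fzr1 they included Zfp36l1, an RNA-binding protein that speeds the decay of AU-rich messages, at 716.3, 577.3, 155.2 and 85.1 against 178.8, 268.9, 105.5 and 61.02 summed CPM (1.03 ± 0.37). It had a read in 95.8% and 85.03% of the cells and was higher in 9 of 10 plates. Hist1h2ao, a replication-dependent histone H2A gene of a family of near-identical copies and hence uncertain as to its copy, was at 273.1 against 149.9 (1.10 ± 0.40). Tars2, the mitochondrial threonyl-tRNA synthetase, was at 106.5 against 32.8 (2.48 ± 0.91), and Larp4b, an RNA-binding protein, at 192.1 against 91.9 (1.25 ± 0.52). Fbxo42, Pcsk7, Zfp536, Pde1b, Exoc6b, Cflar, Hspa4 and Wdr82 completed the set. Of the 14, 11 were higher in at least 8 of 10 plates. The plates hold mostly the same cells that picked these genes, so this count is no separate support. The share of all genes that reach it was not computed.

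The 14 genes named as lower had unadjusted p-values from 0.0112 to 0.0601. They held Mfng, Hes6, Chd7, Mcm5 and Hells, the cholesterol synthesis enzyme Fdft1 (184.2 against 323.7 summed CPM, -0.87 ± 0.32), the proteasome subunit Psma1 (399.5 against 613.3, -0.71 ± 0.28), and Parp1, which builds poly(ADP-ribose) at DNA breaks (366.6 against 581.9, -0.71 ± 0.30). Rnf145, Inip, Wrap53, Ints7, Tmem178 and Ipo7 completed the set. In 7 of the 14 at least 8 of 10 plates had the same sign, and Parp1 had it in only 4. This count too comes from mostly the same cells that picked the genes.

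Several signalling lists had medians above 0 over days without a gene past the test, and some of these medians were near or below 0 over plates. Over all genes tested, 4528 of 8449 had a ratio above 0. The counts of the Sox and glial lineage lists given below are near that share. Of the list of genes known as SOX9 targets in glia and cartilage, 9 were tested; 6 had a ratio above 0, and Sox8, Sox5, Etv5 and Pdpn were higher on 4 of 4 days, while Sox6 was lower on all. Sox8, the SoxE relative of Sox9, was at 120.3 against 29.6 summed CPM (2.12 ± 1.04, unadjusted p = 0.0917, adjusted p = 1) and higher in 8 of 10 plates. The list's median was 0.87 over days and 0.45 over plates. By mean summed CPM, whether tested or not, 9 of its members were higher in Sox9-high cells and 8 lower. Of 8 FGF and ERK genes 6 had a ratio above 0, with a median of 0.80 over days and 0.57 over plates. Etv5, a transcription factor downstream of FGF, was at 144.8 against 38.9 (2.80 ± 1.63), and Spry2, a feedback inhibitor of the pathway, at 32.9 against 10.3 (2.10 ± 1.31); both, with Spred1, were higher on 4 of 4 days. Fgfr3, the FGF receptor with the highest summed CPM of the 3 on the list, which is not corrected for gene length, was at 557.4 against 315.9 (0.70 ± 0.43).

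Of 7 Sonic hedgehog genes tested, 4 were higher on 4 of 4 days: Gas1 and Boc, both co-receptors, Gli3, the main repressor in the cortex, and Sufu, which holds GLI proteins inactive. Gas1 was at 331.5 against 243.1 summed CPM (0.53 ± 0.28) and higher in 9 of 10 plates, and Sufu at 76.2 against 25.4 (1.75 ± 1.85) and higher in 10 of 10. The median was 0.48 over days and 0.21 over plates. Of 9 Wnt genes 6 had a ratio above 0 (median 0.58 over days, 0.22 over plates), and of 9 BMP and Id genes 6 did (0.06 and 0.07). Of 8 Hippo genes 6 had a ratio above 0, with a median of 0.45 over days that turned to -0.04 over plates. Of these 8, 1 reached 10% of the cells on the Sox9-high side only. By mean summed CPM, whether tested or not, 6 Hippo genes were higher in Sox9-high cells and 4 lower. Of 9 Sox genes 5 had a ratio above 0, with a median of 0.57 over days and -0.05 over plates, above 0 in 5 of 10. Of 7 glial lineage genes 4 did, with a median of 0.75 over days, 0.09 over plates and 0.05 ranked within plate. By mean summed CPM, whether tested or not, 5 glial lineage genes were higher in Sox9-high cells and 9 lower. Zbtb20, a regulator of astrocyte formation, was at 284.7 against 188.8 summed CPM (0.75 ± 0.36) and higher on 4 of 4 days. Olig2 was at 0 in every part.

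**Figure D5:**
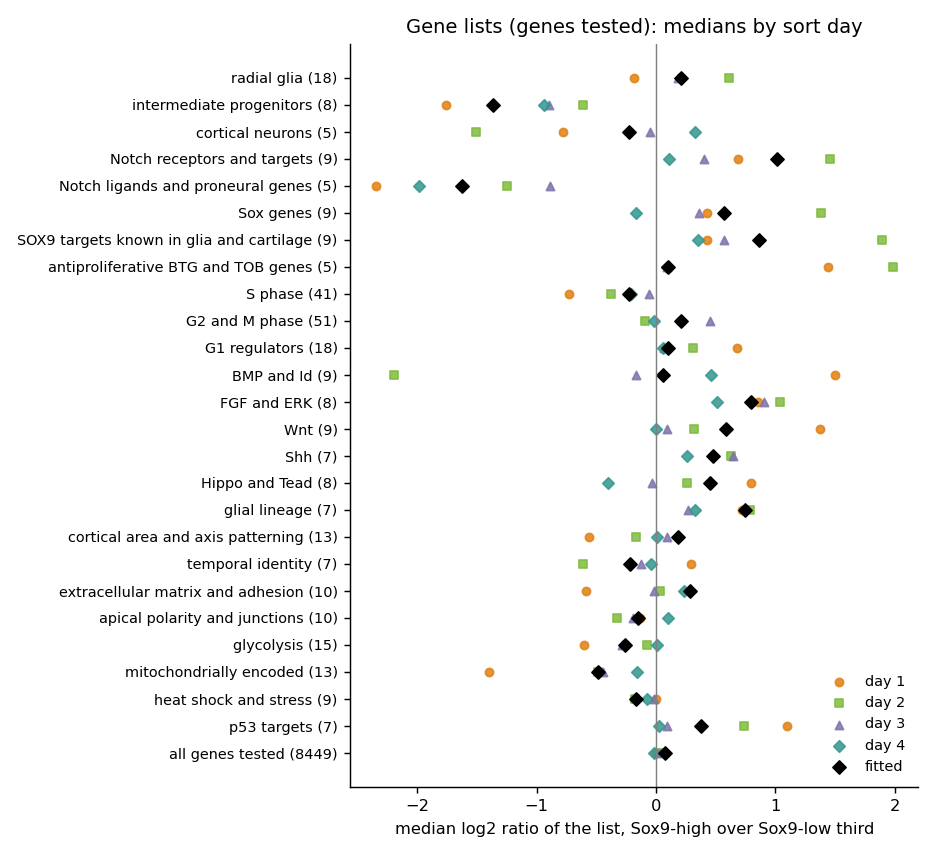
Median log2 ratio of Sox9-high over Sox9-low cells of each gene list with at least 5 tested members (number in brackets), on each sort day (coloured) and fitted (black diamond). Notch ligand, intermediate progenitor, S phase and mitochondrially encoded lists lie left of 0 on all 4 days. Right of 0 on all 4 days lie the Notch receptor, SOX9 target, BTG and TOB, G1 regulator, FGF, Wnt, Shh, glial lineage and p53 target lists. Some of these, such as Wnt and p53 targets, are close to 0 on days 3 and 4. The all-gene medians lie close to 0.

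All 13 mitochondrially encoded genes had a ratio below 0, with 6 lower on 4 of 4 days and a median of -0.48 over days, -0.27 over plates and 0.03 in G1 cells. Together they made up 10037, 12946, 14592 and 13616 summed CPM in Sox9-high and 21322, 20184, 16387 and 15763 in Sox9-low cells. The Sox9-high sum was the lower on each day. The deposited mitochondrial share had a median of 1.16% ± 0.19 against 1.48% ± 0.34 (SD, n = 4 days), lower on 4 of 4 days, though by 1.12 points on day 1 and at most 0.15 points on the other days. The exact permutation p was 0.125 (adjusted p = 0.312), and 8 of 10 plates had the same sign. The complex I subunit mt-Nd4 was lower in 10 of 10 plates (797 against 1329 summed CPM, -0.72 ± 0.23, unadjusted p = 0.0226, adjusted p = 1). Among 15 glycolysis genes 11 had a ratio below 0 (median -0.26, -0.22 over plates), and Pkm, the pyruvate kinase, was lower on 4 of 4 days. The p53 target list had 6 of 7 ratios above 0, with a median of 0.38 over days that turned to -0.05 over plates and -0.29 in G1 cells. Heat shock genes had 3 of 9 (median -0.16, -0.10 over plates), and immediate early genes 1 of 2. The part of RNA quality in the other results was not tested.

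Sox9-high and Sox9-low cells were then compared within G1 and within S and G2M, ranked again inside each class. This used the 5 combinations of day and phase class with at least 15 cells. These were G1 on days 3 and 4 and S with G2M on days 2 to 4, so the classes also differ in their days. The edgeR test called 0 genes in G1 (3.60% of genes at an unadjusted p under 0.05), 0 in S and G2M (0.758%) and 0 for the difference between the classes (2.62%). The intermediate progenitor list kept a median below 0 in both, at -1.75 in G1 and -0.78 in S and G2M, and the G2 and M phase list had 0.13 and -0.04. Mfng was at -1.91 and -3.61, Chd7 at -1.59 and -1.10 and Neurog2 at -3.15 and -1.50 in G1 and in S and G2M respectively, so each log2 ratio was below 0 in both classes. Neurog2 was above 0 in 2 of the 5 combinations, the G1 cells of day 3 (0.97) and the S and G2M cells of day 2 (0.87). Hes6 was at -0.06 in G1, with 1.07 in the G1 cells of day 3, and at -0.92 in S and G2M. Hes5 was at 0.08 in G1 and 1.29 in S and G2M (difference -1.21, unadjusted p = 0.337, adjusted p = 1). By day, Hes5 in S and G2M was at 3.16 on day 2, 0.31 on day 3 and 0.53 on day 4. In G1 it was at 0.005 on day 3 and 0.15 on day 4. The larger value in S and G2M thus rests mostly on day 2, which has no G1 combination. Hes1 was at -0.81 in G1, with 0.04 on day 3 and -1.60 on day 4, and at 0.68 in S and G2M.

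CAG_mRFP radial glia, which the choice of members did not use, gave 37 cells on days 1, 3 and 4 and 12 a side. Their Sox9 was at 1088, 566.9 and 499.3 summed CPM on the high and at 177.04, 170.5 and 100.5 on the low side. Pooled over days, G2M took 4 of 12 cells on each side (33.3%, 95% exact interval of each share 9.92 to 65.1), so that no difference was seen. No interval of the difference between the sides was computed, and 12 cells a side leave its size open. The edgeR test called 0 genes (76 at an unadjusted p under 0.05). Mfng was higher rather than lower (log2 ratio 2.78 ± 4.84, SE), Hes5 was at -1.14 ± 2.90, Hes1 at -1.67 ± 3.09, Neurog2 at -6.80 ± 6.28 and Hes6 at -2.79 ± 2.28. Fabp7 was at 2093, 343.2 and 1252 against 345.2, 276.7 and 920 summed CPM, higher on 3 of 3 days (1.09 ± 0.54). With 3 to 5 cells a side and day, these values settle no direction.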

How the data were processed

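Expression was measured in 1115 single cells, each a sample; 507 were members (17, 41, 219 and 230 on days 1 to 4), 167 Sox9-high, 167 Sox9-low and 173 middle. The authors deposited whole-number counts per gene (16839 genes) and a second table on a natural log scale, ln(1 + counts scaled to 10000 a cell); their cell table gives phase, cluster, class, dates and the mitochondrial fraction of counts, per the file headers. HISAT2, Seurat 2 and mm10 appear in the submitters' processing notes; counting tool, annotation and phase method: not given in the sources used here. Members and gene lists were chosen with earlier results of these data known.

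Raw counts were summed per sort day and side (all days, 10179 to 1772986 counts per cell; no cell was left out) and tested with edgeR 4.0.16 in R 4.3.3 (glmQLFit, glmQLFTest), with total counts as library size, the day as a block and Benjamini-Hochberg adjustment over 8449 genes; Sox9 was left out. DESeq2 1.42.0 and limma 3.58.1 served as alternatives. Day is a block because both sides come from the same sort; correlations of the centred profiles of the sides of a day were 0.08, 0.07, 0.16 and 0.21 over 7329 genes, and the day 3 high profile correlated with the day 4 low profile at 0.18. Named genes have at least 20 summed CPM on either side and 1 sign on all days, without mitochondrial, ribosomal protein and numbered genes, 14 in each direction; a further 15 genes besides Sox9 are always computed. Shares have 95% Clopper-Pearson intervals and exact sign-flip tests over days. PCR reads without molecular identifiers are not independent molecules. Gene positions are from GENCODE.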

Additional observations from a re-analysis of the deposited data

Results flagged for a closer look

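Among 53 values with 1 difference per day, 4 had a day far from the other 3; chance alone flags about 1 in 20 such groups. The log2 ratio of Larp4b was 2.68 on day 2, about 1 on day 1, and 0.69 and 0.67 on days 3 and 4. The S phase share of Sox9-high minus Sox9-low cells was -20 points on day 1, which rests on 0 of 5 against 1 of 5 cells, and between -8.22 and -7.69 on the others. The difference in log2 median total count was 3.15 on day 2, where Sox9-low cells came mostly from another plate. The mitochondrial share differed by -1.12 points on day 1.

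Of 43 genes compared between phase classes, 1 had opposite signs in every combination of day and class. This was Wrap53, a telomerase and Cajal body protein, higher in Sox9-high cells in G1 and lower in S and G2M. Its fitted log2 difference was 2.09 (unadjusted p = 0.0634, adjusted p = 1, edgeR). With only 2 combinations in G1 and 3 in S and G2M, random signs can give this pattern as well.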

How the results depend on the processing

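The count of 0 called genes was the same in 26 of 27 settings, of which 22 were planned and 5 were added after seeing the data; DESeq2 called 1. With no replicate block, and so no pairing by day, 0 genes were called and 76 had an unadjusted p under 0.05. Over settings that share of genes ran from 0.0952% (without day 2) to 8.52% (mean normalized values over plates); the smallest adjusted p of an edgeR setting was 0.368 (days 3 and 4 only). Leaving out 1 day gave 0 in each fit, and 0 in each phase class, where the smallest adjusted p was 0.0501 (G1 cells without day 3, which leaves 1 G1 day, so that its spread comes from the S and G2M sums). The G2M difference ran from 17.2 to 18.8 points without 1 day and from 10.7 to 25.7 under other rankings (added after seeing the data, as were plates as units). With plates as units it was 27.1 (S -12.8, G1 -14.3) and passed a test that treats plates as independent. The other settings could not pass. Over 4 days the exact sign-flip permutation test cannot go below p = 0.125, and the values without 1 day were not tested. Of 42 genes 29 kept their sign in every setting, 24 of the 28 named by rule among them. The others turned as follows, and the cause was not tested; values from mean normalized data are natural-log differences. Pax6 was 0.30 without day 1 and -0.28 without day 2, 0.04 by mean CPM, 0.19 ranked within phase, 0.00 within plate, 0.22 within classes of detected genes, 0.03 in clusters 0 and 1, 0.24 with plates as units, 0.23 on days 3 and 4, 0.37 in G1 cells by plate, and 0.15 and 0.18 from normalized values by day and plate. Sox2 was 0.11 with no block, 0.08 without day 1, -1.41 without day 2 and 0.36 in G1 cells by plate. Btg2 was -0.52 on days 3 and 4, -0.12 in G1 cells by plate, and -0.04 and -0.06 from normalized values. Tubb3 was 0.19 without day 2 and -0.84 without day 4, 0.24 by plate, 0.79 on days 3 and 4, 1.99 in G1 cells by plate, and 0.07 and 0.06 from normalized values. Mki67 was -0.94 within cluster, -0.61 within classes of detected genes, -0.18 with 2 equal parts and -0.52 over all RGCs; Ccnd1 was 0.02 within phase and 0.19 over all RGCs. In G1 cells by plate Hes1 was -0.07, Hist1h2ao -1.24, Pde1b -0.63, Inip 0.44 and Wrap53 0.82; Inip was 0.08 within classes of detected genes. From normalized values Slc1a3 was -0.01 by plate and mRFP -0.04 and -0.02. The median detected genes of cells thinned, high minus low, were -51.17 without day 1 and 135.2 without day 2. Depth and 4 days limit all of these: the median SE of a log2 ratio was 1.10.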
